A study of Mus musculus with 9 samples.

Results

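The 9 genes of the chemokine family followed in regulatory T cells (Tregs) of the mouse gut were Ccl3, Ccl4, Ccl5, Xcl1, Ccl20, Ccl1, Cxcl10, Cxcl2 and Cxcl16. They were taken by name, each as the array feature annotated to that gene alone, and the 9 of them had 1 such feature each among 22180 genes with a feature of their own. Of these, 8 passed the filter on dim signal and were among the 12792 genes tested, while Ccl1 did not pass. The Tregs came from lamina propria of small plus large intestine. They were sorted by a red fluorescent reporter at Foxp3, which the 3 genotypes share, as they do the C57BL/6 strain. Y3/CD103-/- mice, Y3 mice and wild-type (WT) mice were measured on 3 Affymetrix Gene ST 2.0 arrays each. CD103 is the αE integrin chain encoded by Itgae, and the study's title pairs it with IL-2Rβ, a signalling chain of the receptor for interleukin 2. A Y3 form of IL-2Rβ, with tyrosines of its cytoplasmic tail mutated so that it signals weakly, is known from earlier mouse work. The labels do not say whether this is the same allele, what drives it, how old the mice were, or whether an array held RNA of 1 mouse or of a pool. The p-values therefore speak only of how far these arrays spread, which may be technical.

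Chemokines are small secreted proteins that bind G protein-coupled receptors and steer the migration of leukocytes. Their subfamilies, CC, CXC and C, are named for the spacing of conserved cysteines, and each ligand reaches the cells that carry its receptor. In the gut they are made by epithelial cells, macrophages, dendritic cells and T cells, and a T cell can change which cells gather around it through the chemokines it releases. Of the 9 genes, Ccl3, Ccl4 and Ccl5 encode inflammatory CC chemokines that attract T cells and monocytes, and Xcl1 encodes the ligand of XCR1 on cross-presenting dendritic cells. Ccl20 encodes the ligand of CCR6, Ccl1 that of CCR8, Cxcl10 a ligand of CXCR3, Cxcl2 a ligand of CXCR2 on neutrophils, and Cxcl16 the membrane-bound ligand of CXCR6.

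The promoters of Xcl1, Ccl20 and Ccl3 are shown because these genes passed the test in a comparison below. Each runs from 250 bases before to 50 after the start of the gene, 5′ to 3′ on the strand of the gene, from RefSeq on GRCm38.p6. Capitals mark matches on either strand to TGANTCA (the AP-1 motif), GGNNNTTCC (κB), GGTGTGA (T-box), GAAANNGAA (interferon response element) and TTCNNNGAA (STAT).
Xcl1 (chr1:164935473-164935772, minus strand): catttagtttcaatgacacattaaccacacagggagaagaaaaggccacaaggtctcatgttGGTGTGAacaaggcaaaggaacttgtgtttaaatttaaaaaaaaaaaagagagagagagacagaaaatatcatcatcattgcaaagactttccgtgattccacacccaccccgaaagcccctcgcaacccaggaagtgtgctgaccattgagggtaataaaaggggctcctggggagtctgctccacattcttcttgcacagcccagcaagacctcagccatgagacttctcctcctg
Ccl20 (chr1:83116516-83116815, plus strand): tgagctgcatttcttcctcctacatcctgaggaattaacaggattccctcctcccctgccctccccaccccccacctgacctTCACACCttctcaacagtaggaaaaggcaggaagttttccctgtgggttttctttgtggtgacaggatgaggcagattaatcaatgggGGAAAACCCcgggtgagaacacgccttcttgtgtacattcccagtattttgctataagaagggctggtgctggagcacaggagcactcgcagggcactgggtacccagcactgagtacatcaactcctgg
Ccl3 (chr11:83649329-83649628, minus strand): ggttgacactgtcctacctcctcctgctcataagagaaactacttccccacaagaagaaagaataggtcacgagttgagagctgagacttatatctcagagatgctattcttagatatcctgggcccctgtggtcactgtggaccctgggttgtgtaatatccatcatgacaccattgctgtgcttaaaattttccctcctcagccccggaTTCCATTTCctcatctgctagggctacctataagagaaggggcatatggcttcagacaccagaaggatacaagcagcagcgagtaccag
Xcl1 held a T-box match whose first base lay at -188 from the start. Ccl20 held a T-box match on the other strand at -168 and a κB match on the other strand at -80. Ccl3 held an interferon response element match on the other strand at -39. No 2 matches overlapped in these windows. RefSeq promoters were found for 6 of the 9 genes, and 2 of the 6 held the T-box letters, against 3.98% of the 32851 promoters of this length. The κB letters stood in 4 of the 6 (Ccl20, Ccl1, Cxcl10 and Cxcl2) against 18.5% of all promoters, and the interferon response element in 3 (Ccl3, Ccl1 and Cxcl10) against 8.56%. The AP-1 letters stood in 1 (Cxcl10) against 7.81%, and the STAT letters in 0 against 8.30%. These matches describe letters in a window and carry no measure of binding. The promoters of Ccl4, Ccl5 and Cxcl16 were not analysed here.

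Ccl5 and Xcl1 rose in Y3 Tregs, and Ccl3 fell. In Y3/CD103-/- Tregs Ccl5 rose and Ccl20 fell, and between Y3/CD103-/- and Y3 no gene of the 9 passed. A gene was said to rise or fall at an adjusted p under 0.05 in limma, with Benjamini-Hochberg adjustment over the 12792 genes. In Y3 against WT 3 of the 8 tested chemokines passed, where 0.790% of all tested genes did; 2 rose, against 0.618% of all genes, and 1 fell, against 0.172%. For Y3/CD103-/- against WT 2 of 8 passed, where 0.836% of all genes did, with 1 up (0.555%) and 1 down (0.281%). The members were chosen with earlier results of these data known, so these counts are a description of the 9 genes. Both comparisons share the WT arrays. The plot of the signal by array shows each gene.

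**Figure D1:**
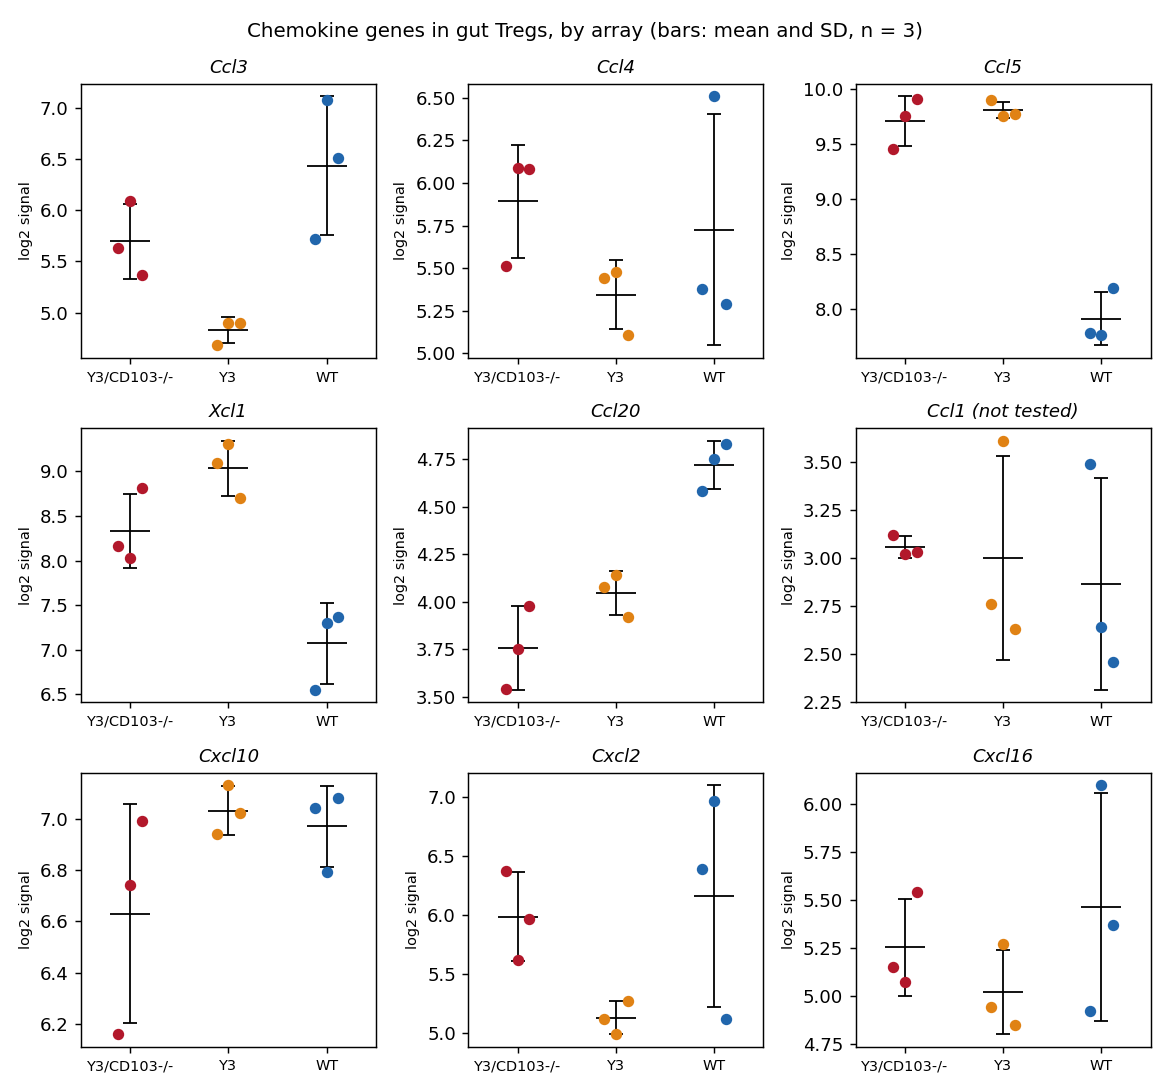
Log2 signal (vertical axis, a separate scale in each panel) of the 9 chemokine genes on the 3 arrays of Y3/CD103-/-, Y3 and WT (points), with the mean and SD of each group (bars, n = 3). Ccl5 and Xcl1 lie higher on all Y3/CD103-/- and Y3 arrays than on any WT array, Ccl20 lies lower on all of them, and Ccl3 is lowest on the Y3 arrays. WT array 2, the middle point of its group, is the highest of the 9 arrays for Ccl3, Ccl4, Cxcl2 and Cxcl16.

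Among the CC chemokines, Ccl5 (RANTES), which memory T cells and NK cells release, stood at log2 9.46, 9.76 and 9.91 on the Y3/CD103-/- arrays, 9.90, 9.76 and 9.78 on the Y3 arrays, and 7.78, 7.76 and 8.19 on the WT arrays. The 6 arrays of the altered genotypes lay above the 3 WT arrays with no overlap, and the Y3/CD103-/- and Y3 arrays overlapped each other. In Y3 against WT the difference was 1.91 ± 0.18 log2 (SE), or 3.75-fold (95% interval 1.51 to 2.30 log2, adjusted p = 0.00161 in limma). Against WT, Y3/CD103-/- Tregs had 1.80 ± 0.18, or 3.48-fold (1.41 to 2.19, adjusted p = 0.00161 in limma). Ccl5 passed in both comparisons with each of the 9 arrays left out in turn. Between Y3/CD103-/- and Y3 its difference was -0.10, with an interval of -0.50 to 0.29 log2 (adjusted p = 0.881 in limma).

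Ccl3 (MIP-1α), which activated T cells and macrophages release, stood at log2 5.63, 6.09 and 5.37 on the Y3/CD103-/- arrays, 4.68, 4.90 and 4.90 on the Y3 arrays, and 5.72, 7.07 and 6.51 on the WT arrays. The Y3 arrays lay below all others, and the Y3/CD103-/- arrays overlapped the WT arrays. In Y3 against WT it fell by 1.61 ± 0.30 log2 (SE), 3.05-fold lower (95% interval -2.28 to -0.94, adjusted p = 0.0393 in limma). Its difference in Y3/CD103-/- against WT was -0.73 (-1.40 to -0.07, adjusted p = 0.323 in limma), and in Y3/CD103-/- against Y3 it was 0.87 (0.20 to 1.54, adjusted p = 0.421 in limma). The fall in Y3 passed in 3 of the 9 fits that left out an array (adjusted p from 0.0128 to 0.173). Leaving out Y3/CD103-/- array 1 (0.0582), Y3 array 1 (0.171), 2 (0.0979) or 3 (0.173), or WT array 2 (0.0884) or 3 (0.102) ended the call. The difference in these fits was -1.61, -1.54, -1.65, -1.64, -1.29 and -1.57 log2, in that order.

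Ccl4 (MIP-1β), the close relative of Ccl3, stood at log2 5.51, 6.09 and 6.08 on the Y3/CD103-/- arrays, 5.44, 5.48 and 5.11 on the Y3 arrays, and 5.38, 6.51 and 5.29 on the WT arrays. WT array 2 stood above all other arrays, and the other WT arrays lay within the range of Y3. The difference was -0.39 in Y3 against WT (95% interval -1.06 to 0.29, adjusted p = 0.540 in limma) and 0.17 in Y3/CD103-/- against WT (-0.51 to 0.84, adjusted p = 0.865). Ccl4 lay higher on each Y3/CD103-/- array than on any Y3 array, by 0.55 on average (-0.12 to 1.22, adjusted p = 0.561 in limma). Without WT array 2 its difference between Y3 and WT was 0.01, and its sign in both comparisons with WT depended on single WT arrays.

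Ccl5, Ccl3 and Ccl4 lie on chromosome 11 with only Ccl9 and Ccl6 between Ccl5 and Ccl3 among protein-coding genes of GRCm38.p6. Of Ccl5 and Ccl3, separated only by those chemokine genes, Ccl5 rose in Y3 and Ccl3 fell. The fall of Ccl3 passed in only 3 of the 9 fits that left out an array. Whether the signals of Ccl5 and Ccl3 came from the same cells was not tested. Ccl9, which was tested, differed by -0.40 log2 in Y3 (adjusted p = 0.389 in limma) and by -0.49 in Y3/CD103-/- (0.386), both against WT, and Ccl6 was too dim to be tested. Ccl1 and Cxcl16 lie on chromosome 11 too, as does Itgae, the gene behind CD103; 201 protein-coding genes lie between Itgae and Ccl3, and 56 between Itgae and Cxcl16. Xcl1 and Ccl20 lie on chromosome 1, and Cxcl10 and Cxcl2 on chromosome 5.

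Xcl1 (lymphotactin), the single C-type chemokine of the mouse, stood at log2 8.16, 8.03 and 8.81 on the Y3/CD103-/- arrays, 9.10, 9.31 and 8.70 on the Y3 arrays, and 6.55, 7.30 and 7.37 on the WT arrays. All 6 arrays of the altered genotypes lay above the 3 WT arrays. In Y3 against WT it rose by 1.97 ± 0.28 log2 (SE), or 3.91-fold (95% interval 1.36 to 2.57, adjusted p = 0.0119 in limma). It no longer passed when Y3 array 1 (adjusted p = 0.0850 in limma), 2 (0.0542) or 3 (0.0523) was left out. Nor did it pass when the closest pair, Y3 arrays 1 and 3, counted as 1 (0.0679). The difference itself was 1.93, 1.83, 2.14 and 2.03 log2 in these fits, in that order. The difference of 1.26 ± 0.28, or 2.40-fold, in Y3/CD103-/- against WT did not pass (adjusted p = 0.0669 in limma; 0.031 to 0.187 over its alternatives). Between Y3/CD103-/- and Y3 the difference was -0.70, with an interval of -1.31 to -0.10 log2 (unadjusted p = 0.0272, adjusted p = 0.455 in limma).

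Ccl20 (MIP-3α), which gut epithelium and Th17 cells release, stood at log2 3.54, 3.75 and 3.98 on the Y3/CD103-/- arrays, 4.08, 4.14 and 3.92 on the Y3 arrays, and 4.58, 4.75 and 4.83 on the WT arrays. Every array of the altered genotypes lay below every WT array. Ccl20 fell by 0.96 ± 0.16 log2 (SE), 1.95-fold lower, in Y3/CD103-/- against WT (95% interval -1.32 to -0.60, adjusted p = 0.0258 in limma). Its difference in Y3 against WT, -0.67 ± 0.16, did not pass (-1.03 to -0.31, adjusted p = 0.0905 in limma), and that in Y3/CD103-/- against Y3 was -0.29 (-0.65 to 0.07, adjusted p = 0.564). The fall in Y3/CD103-/- passed only without WT array 1 or Y3 array 2 among the 9 fits that left out an array (adjusted p from 0.0444 to 0.0774), while the difference itself stayed between -1.08 and -0.85 log2. With the replicate number as a block its adjusted p was 0.0538. The mean of the epithelial markers, described below, was 5.49, 4.23 and 3.88 on the Y3/CD103-/- arrays, 4.67, 3.91 and 4.23 on the Y3 arrays, and 5.14, 5.76 and 4.77 on the WT arrays; its part in the difference of Ccl20 was not tested.

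Cxcl2 (MIP-2), a neutrophil attractant, stood at log2 6.37, 5.62 and 5.96 on the Y3/CD103-/- arrays, 5.12, 4.99 and 5.27 on the Y3 arrays, and 6.39, 6.96 and 5.12 on the WT arrays. The Y3 arrays were alike and low, while WT array 3 lay among them and the other WT arrays lay above. The difference of -1.03 ± 0.38 log2 (SE) in Y3 against WT did not pass (95% interval -1.87 to -0.19, adjusted p = 0.220 in limma), and without WT array 3 it was -1.55 and passed (adjusted p = 0.0371). Its difference between Y3/CD103-/- and Y3 was 0.85 with no overlap of the groups (0.01 to 1.70, adjusted p = 0.496 in limma), and against WT it was -0.18 (-1.02 to 0.67, adjusted p = 0.888).

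Cxcl16, which is made as a membrane protein and also scavenges lipoproteins, stood at log2 5.15, 5.07 and 5.54 on the Y3/CD103-/- arrays, 4.94, 5.27 and 4.85 on the Y3 arrays, and 4.92, 6.10 and 5.37 on the WT arrays. Its 3 groups overlapped. The difference was -0.44 in Y3 against WT (95% interval -1.05 to 0.16, adjusted p = 0.429 in limma) and -0.21 in Y3/CD103-/- against WT (-0.82 to 0.40, adjusted p = 0.794).

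Cxcl10 (IP-10), an interferon-induced chemokine, stood at log2 6.16, 6.74 and 6.99 on the Y3/CD103-/- arrays, 6.94, 7.13 and 7.02 on the Y3 arrays, and 7.04, 6.79 and 7.08 on the WT arrays. The groups overlapped, and Y3/CD103-/- array 1 was the lowest. Its difference in Y3 against WT was 0.06 (95% interval -0.40 to 0.52, adjusted p = 0.899 in limma), which turned to -0.08 after quantile normalization. Y3/CD103-/- differed from WT by -0.34 (-0.80 to 0.12, adjusted p = 0.526 in limma). Ccl1, a ligand for the Treg receptor CCR8, exceeded the median of its array on only 2 of the 9 arrays and had group means of 3.06 ± 0.06 (SD, n = 3) in Y3/CD103-/-, 3.00 ± 0.54 in Y3 and 2.86 ± 0.55 in WT. It was not tested, and its groups overlapped.

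**Figure D2:**
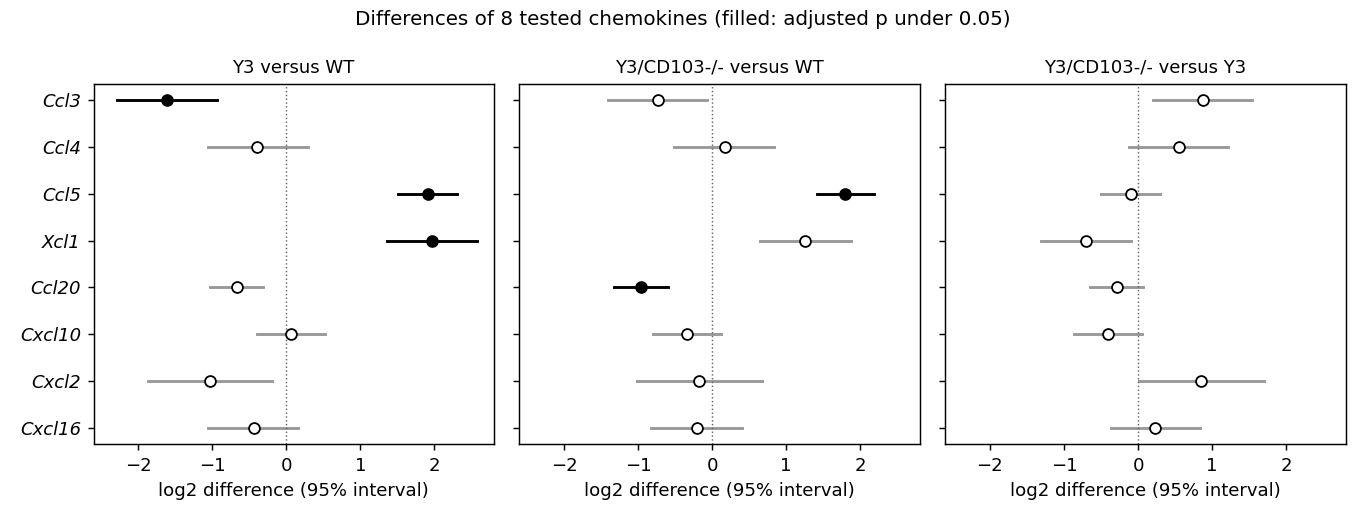
Log2 differences (horizontal axis) with 95% intervals for the 8 tested chemokines (rows), in 1 panel for each of the 3 comparisons. Filled points passed at an adjusted p under 0.05 in limma: Ccl5 (1.91 and 1.80) in both comparisons with WT, Xcl1 (1.97) and Ccl3 (-1.61) in Y3, and Ccl20 (-0.96) in Y3/CD103-/-; no point is filled in the third panel.

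Between Y3/CD103-/- and Y3, which differ by the CD103 genotype, 0 of the 8 chemokines passed in limma, where 0.00782% of all tested genes did. At an unadjusted p under 0.05, 3 of 8 differed, against 9.90% of all genes: Ccl3 and Cxcl2 were higher (1.78% of all genes were) and Xcl1 lower (8.12%). The groups did not overlap for Ccl3, Ccl4 and Cxcl2, all higher in Y3/CD103-/-, where 18.6% of all tested genes did not overlap and 4.11% lay higher. With an intensity trend and a robust prior 0 passed as well. The 1 gene of the 12792 that passed in the fit reported was Itgae itself. It averaged 6.52 ± 0.42 (SD, n = 3) in Y3/CD103-/- and 9.32 ± 0.20 in Y3.

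Over the 8 tested chemokines the median difference was -0.41 log2 in Y3 against WT, where that of all tested genes was 0.15. It was -0.19 in Y3/CD103-/- against WT (all genes 0.04) and 0.06 in Y3/CD103-/- against Y3 (all genes -0.10). Quantile normalization moved the median of all genes in Y3 against WT to 0.04. Under that scaling the differences in Y3 against WT were 1.87 for Ccl5, 1.90 for Xcl1 and -1.77 for Ccl3, and each still passed in limma (adjusted p = 0.00224, 0.0198 and 0.0358). Ccl5 (1.73) and Ccl20 (-1.01) also still passed after it in Y3/CD103-/- against WT. Groups did not overlap for 3 of 8 chemokines in Y3/CD103-/- against WT, where 17.4% of all genes did not; Ccl5 and Xcl1 lay higher (10.7% of all genes) and Ccl20 lower (6.68%). For Y3 against WT there were 4 of 8, where 23.9% of all genes did not overlap; Ccl5 and Xcl1 lay higher (19.0%) and Ccl3 and Ccl20 lower (4.93%). At an unadjusted p under 0.05, 4 of 8 differed in Y3/CD103-/- (13.3% of all genes; 2 higher, against 7.90%, and 2 lower, against 5.35%). In Y3 it was 5 of 8 (17.0%; 2 higher, against 13.4%, and 3 lower, against 3.60%).

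The cells that could give these signals were checked with marker lists. All 10 Treg and T cell markers with a feature, among them Foxp3, Cd3e and Cd4, exceeded the array median on the 9 arrays, with list means of 9.34 to 9.46 in Y3/CD103-/-, 9.42 to 9.55 in Y3 and 9.30 to 9.41 in WT. Transcripts of other cells were present too. The macrophage, monocyte and dendritic cell list had 22 genes with a feature, 14 of them above the median on all arrays and Itgam and Cd14 above it on none. Its mean was 4.31 to 4.38 in Y3/CD103-/-, 3.82 to 3.96 in Y3 and 4.09 to 4.67 in WT, so that the Y3 arrays lay below all others. In that list H2-Aa, a class II MHC gene, fell in Y3 against WT (-1.80 ± 0.31 log2, adjusted p = 0.0264 in limma, passing in 4 of 9 fits with an array left out). Of its 17 tested genes, 1 was higher and 10 lower in Y3 against WT at an unadjusted p under 0.05 in limma. Among all tested genes these shares were 13.4% and 3.60%. Cd68 went the other way, with every array of the altered genotypes above every WT array (means 6.14 in Y3/CD103-/-, 6.17 in Y3 and 5.40 in WT). The epithelial list, with 24 genes and 15 above the median on all arrays, ran from 3.88 to 5.49 in Y3/CD103-/-, 3.91 to 4.67 in Y3 and 4.77 to 5.76 in WT. Both lists were highest on WT array 2. Mean B and plasma cell signal ran from 3.81 to 4.02 in Y3/CD103-/-, 3.69 to 3.88 in Y3 and 3.89 to 4.16 in WT. The stromal list, with 3 of 10 markers above the median on no array, ran from 3.10 to 3.42, 3.07 to 3.13 and 3.30 to 3.41 in that order. On the Y3 arrays the epithelial, B and plasma cell, and stromal lists thus also lay below every WT array. Among the Treg and T cell markers Il2ra fell in Y3/CD103-/- against WT, with means of 7.28 and 8.15. In Y3 the mean of Il2ra was 7.50. Each Y3 array also lay below every WT array for it, but it did not pass there. The array medians, for scale, lay between 3.15 and 3.23.

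**Figure D3:**
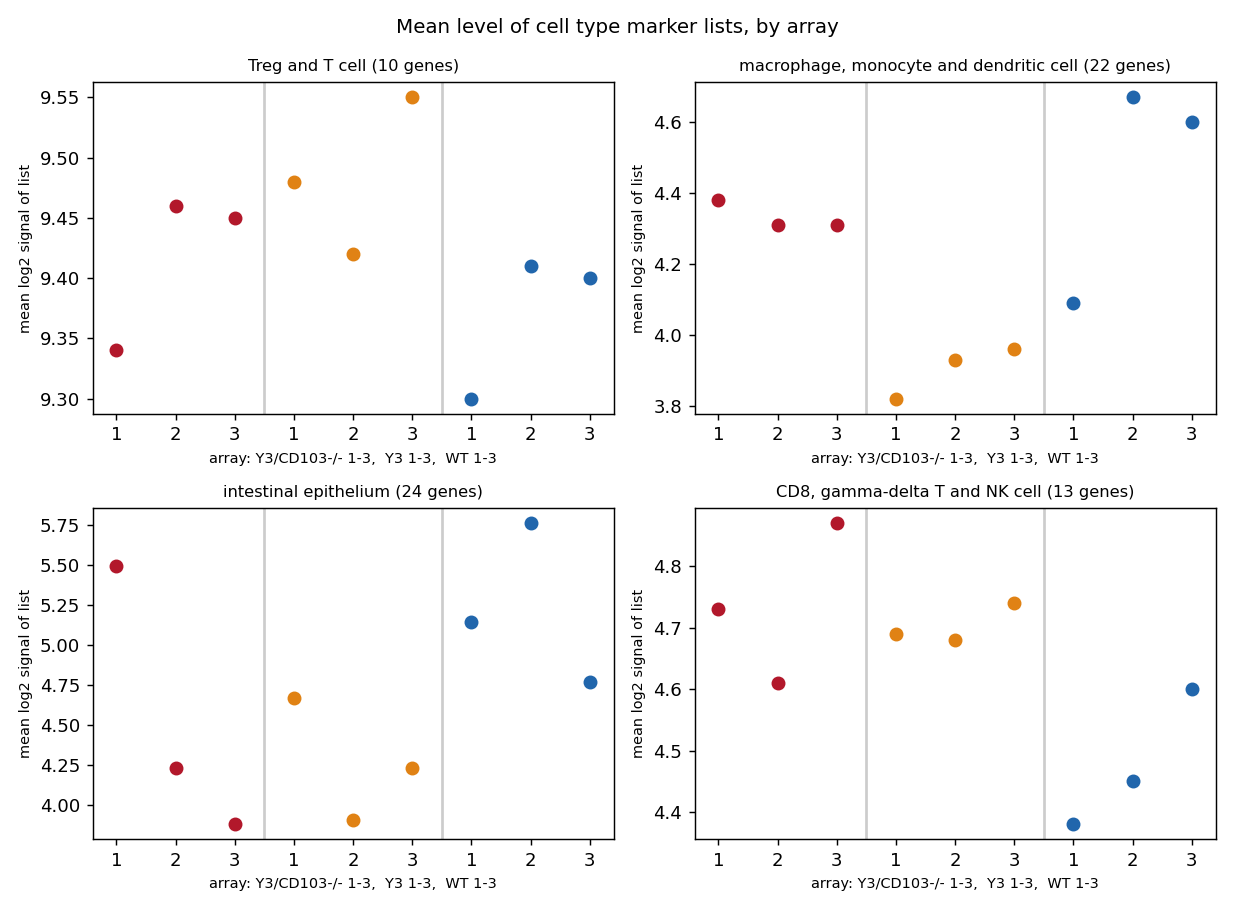
Mean log2 signal (vertical axis, a separate scale in each panel) of 4 marker lists on each array of Y3/CD103-/-, Y3 and WT (horizontal axis; points, 1 array each). The macrophage, monocyte and dendritic cell list is lowest on the 3 Y3 arrays (3.82 to 3.96), and it and the epithelial list are highest on WT array 2 (4.67 and 5.76). The Treg and T cell list stays between 9.30 and 9.55.

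The pattern of Ccl3 over the arrays was like that of the macrophage and dendritic cell list in part. Both were lowest in Y3 on each array, higher in Y3/CD103-/- than in Y3 on each array, and ordered 2, 3, 1 from high to low within WT. Within Y3/CD103-/- they parted. There Ccl3 was highest on array 2 (5.63, 6.09 and 5.37 on arrays 1 to 3), and the list was highest on array 1 (4.38, 4.31 and 4.31). Whether Ccl3 came from Tregs or from such cells was not tested, and in sorted bulk RNA fewer cells of a type and less RNA per cell cannot be told apart. Ccl4, Cxcl2 and Cxcl16 shared with both lists their highest value on WT array 2; their part in these differences was not tested. Of the granulocyte and mast cell markers, 7 of 10 exceeded the median on no array, among them S100a8 and S100a9. For the rises of Ccl5 and Xcl1 the list to set beside them is that of CD8, γδ T and NK cells, whose mean was 4.61 to 4.87 in Y3/CD103-/-, 4.68 to 4.74 in Y3 and 4.38 to 4.60 in WT. Of its 13 genes with a feature, Gzma, Gzmb and Nkg7 rose in both comparisons with WT, and Tregs can express them. Of the 13, 7 exceeded the median on all 9 arrays, among them Cd8b1, the NK receptor gene Ncr1 and the perforin gene Prf1, while the NK receptor genes Klrd1, Klrk1 and Klre1 exceeded it on 0 arrays. Cd8a stood at 3.07, 3.27 and 4.06 on the Y3/CD103-/- arrays, 3.11, 3.22 and 3.21 on the Y3 arrays, and 3.05, 3.10 and 3.00 on the WT arrays. It exceeded the array median on 4 arrays and was highest on Y3/CD103-/- array 3. Each Y3 array lay above every WT array for Cd8a, and the Y3/CD103-/- arrays overlapped the WT arrays. Cd8b1 stood at 3.90, 3.45 and 4.19 on the Y3/CD103-/- arrays, 4.69, 3.41 and 4.57 on the Y3 arrays, and 4.62, 4.55 and 4.24 on the WT arrays, and so did not lie higher in either altered genotype as a group. Ncr1 ranged from 3.33 to 4.14 over the 9 arrays. Prf1 averaged 4.96 in Y3/CD103-/-, 5.46 in Y3 and 4.65 in WT, with overlap of the groups. Of the 9 tested genes of the list, 4 were higher and 1 lower in Y3 against WT at an unadjusted p under 0.05 in limma. All tested genes had 13.4% and 3.60%. In Y3/CD103-/- against WT, 3 were higher and 0 lower, beside 7.90% and 5.35% of all genes. The part of such cells in the rises of Ccl5 and Xcl1 was not tested.

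Genes of most similar pattern were sought for the 4 chemokines whose group means spanned at least 1 log2, by the root-mean-square difference (RMS, in log2) over the 9 arrays after each gene was centred on its own mean. Nearest to Ccl5, whose own RMS around its mean was 0.89, were Nkg7, a membrane protein of cytotoxic granules (0.19), Il12rb2, a chain of the IL-12 receptor (0.20), and Apaf1, the apoptosome scaffold (0.24). Nearest to Xcl1 (own RMS 0.88) were Mctp2 (0.28), the IL-1 decoy receptor gene Il1r2 (0.32) and Zc3h12c, a ribonuclease gene of the regnase family (0.34). Nearest to Ccl3 (own RMS 0.75) were C3ar1, the receptor of complement fragment C3a (0.25), and the class II MHC genes H2-Ab1 (0.28) and H2-Aa (0.29). Those MHC genes are markers of antigen-presenting cells and were also in the macrophage and dendritic cell list. Nearest to Cxcl2 (own RMS 0.66) were the tight junction gene Tjp1 (0.31), N4bp3 (0.32) and Olfm4, a gene of intestinal crypt stem cells (0.33).

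**Figure D4:**
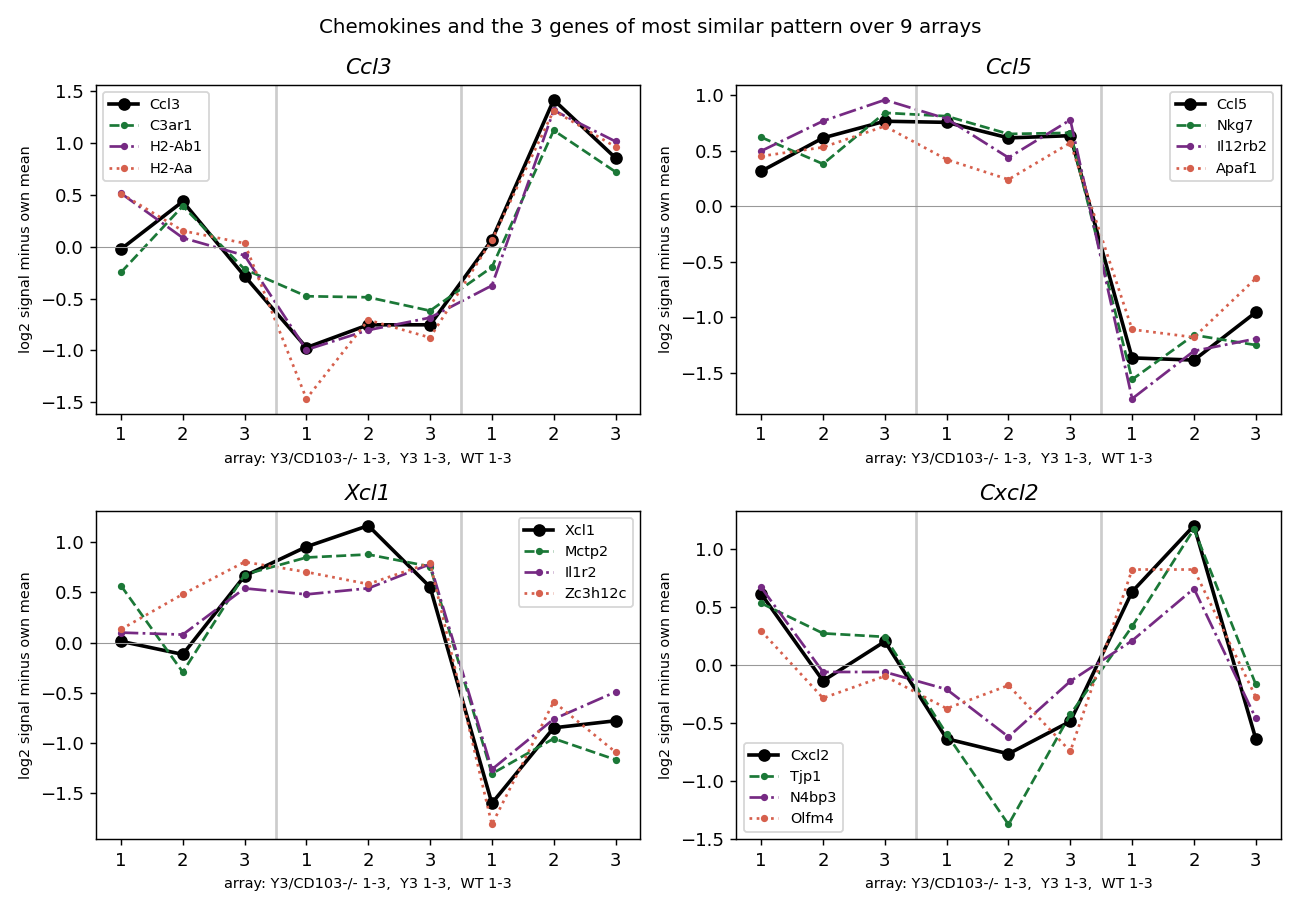
Log2 signal minus each gene's own mean (vertical axis) on the arrays of Y3/CD103-/-, Y3 and WT (horizontal axis) for Ccl3, Ccl5, Xcl1 and Cxcl2 (black) and the 3 genes of smallest RMS difference from each (coloured). Lines join arrays only to guide the eye. Ccl5 and its neighbours form a high and a low level that split the altered genotypes from WT, while Ccl3 and Cxcl2 are highest on WT array 2.

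These genes were chosen for their likeness over the same 9 arrays, so their own differences between genotypes follow from that choice and add no separate result.

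The receptors through which these chemokines act were measured in the same cells. Of 8 receptor genes with a feature of their own 7 were tested, and Ccr3 was too dim. Cxcr3, the receptor of Cxcl10 and a mark of Th1-type T cells, stood at log2 6.03, 6.38 and 6.60 on the Y3/CD103-/- arrays, 6.45, 6.45 and 6.40 on the Y3 arrays, and 5.12, 5.32 and 5.56 on the WT arrays. The WT arrays lay below all others. Cxcr3 rose by 1.10 ± 0.18 log2 (SE) in Y3 (adjusted p = 0.0246 in limma) and by 1.00 ± 0.18 in Y3/CD103-/- (0.0347), both against WT, while its ligand gene Cxcl10 did not pass in either. With an array left out, Cxcr3 passed in 4 of 9 fits in Y3 (adjusted p up to 0.128) and in 1 in Y3/CD103-/- (up to 0.127). Ccr8, the receptor of Ccl1, lay lower than every WT array on each array of the altered genotypes, by -0.46 log2 in Y3/CD103-/- and -0.69 in Y3 on average, and did not pass (adjusted p = 0.366 in Y3/CD103-/- and 0.143 in Y3, limma). Ccr6, the receptor of Ccl20, differed by -0.20 in Y3/CD103-/- and -0.12 in Y3, and Cxcr6, the receptor of Cxcl16, by 0.44 in Y3/CD103-/- and 0.10 in Y3, all against WT, and none of these passed (adjusted p from 0.544 to 0.885 in limma). Ccr1, which also binds Ccl3 and Ccl5, differed by -0.11 in Y3/CD103-/- and -0.17 in Y3, and Xcr1, the receptor of Xcl1, by 0.12 in Y3/CD103-/- and 0.19 in Y3 (adjusted p from 0.765 to 0.916 in limma). Cxcr2, the receptor of Cxcl2, exceeded the median on 3 arrays and did not pass (adjusted p = 0.395 in Y3/CD103-/- and 0.910 in Y3).

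Of 31 other chemokine genes, 27 had a feature and 14 were tested, and 0 passed in limma in any of the 3 comparisons. At an unadjusted p under 0.05 there were 2 higher (Cxcl3 and Cxcl13) and 1 lower (Ccl25) in Y3/CD103-/- against WT. Of all tested genes, 7.90% were higher and 5.35% lower there. For Y3 against WT there were 0 higher and 1 lower (Ccl7), beside 13.4% and 3.60% of all genes. Set against Y3, Y3/CD103-/- had 1 higher (Cxcl13) and 1 lower (Ccl25), beside 1.78% and 8.12% of all genes. These 4 were picked for their p. Over the 14 tested genes the median difference was 0.02 in Y3/CD103-/- and -0.13 in Y3, both against WT, beside 0.04 in Y3/CD103-/- and 0.15 in Y3 for all tested genes. Of 15 other chemokine receptor genes 9 were tested and 0 passed in limma; at an unadjusted p under 0.05, 2 were higher and 4 lower in Y3/CD103-/- against WT, beside 7.90% and 5.35% of all genes. In Y3 against WT, 1 was higher and 4 lower, beside 13.4% and 3.60% of all genes.

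T-box, RUNX and interferon-γ genes were counted as a list, as were NF-κB, AP-1 and activation genes. Their part in the chemokine differences was not tested. Both lists were chosen with earlier results of these data known, so the counts only describe the listed genes. Of 13 tested T-box, RUNX and interferon-γ genes, 4 rose in Y3/CD103-/- (Ifng, Il12rb2, Il18r1 and Il18rap), where 0.555% of all genes did. In Y3, 6 rose (the same 4 with Tbx21 and Runx3), where 0.618% of all genes did, and 0 fell in either. At an unadjusted p under 0.05, 7 were higher and 1 lower in Y3/CD103-/-, beside 7.90% and 5.35% of all genes. In Y3, 7 were higher and 2 lower, beside 13.4% and 3.60%. The median difference of that list was 0.52 in Y3/CD103-/- and 0.40 in Y3, both against WT. That of all tested genes was 0.04 in Y3/CD103-/- and 0.15 in Y3. Tbx21, which encodes T-bet, rose by 1.07 log2 in Y3 (adjusted p = 0.0238 in limma) and passed in 6 of 9 fits with an array left out. Runx3 rose by 0.83 (adjusted p = 0.0455) and passed in 0 of those fits. Of 24 tested NF-κB, AP-1 and activation genes, Nfkb2 rose in Y3/CD103-/- (0.83 log2, adjusted p = 0.0362 in limma; 0 of 9 fits with an array left out) and Atf3, a stress-induced factor, fell in Y3 (-1.51, adjusted p = 0.0387; 3 of 9). The median difference of that list was -0.05 in Y3/CD103-/- and -0.11 in Y3, beside 0.04 and 0.15 for all tested genes. At an unadjusted p under 0.05, 2 of its genes were higher and 6 lower in Y3/CD103-/-, beside 7.90% and 5.35% of all genes. In Y3, 2 were higher and 7 lower, beside 13.4% and 3.60%.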

How the data were processed

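The values are log2 signal per array feature, as the authors deposited them; the submitters' processing notes name RMA. Its version, its settings and any genome build were not given in the sources used here. RNA was amplified in 1 round and biotin-labelled, per the labels' protocols, and no batch is given.

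Of 39137 features, 23521 named exactly 1 gene, 1814 several and 13802 none. The brightest feature stood for each of 22180 genes. A gene was tested if it exceeded its array's median on 3 or more arrays of 9, and 12792 did. Group means of all 9 arrays were fitted with limma 3.58.1 in R 4.3.3 (10.8 degrees of freedom). Tests were 2-sided, with Benjamini-Hochberg adjustment over the 12792 genes and a threshold of 0.05. The fit was tested on simulated data. Precision is limited by having 3 arrays a group: the 95% interval in Y3 against WT extended by 0.45 log2 each way for a typical gene (the median over genes).

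The 9 chemokines were named in full, as were list genes that passed, receptors of the 9, and the 3 genes nearest in pattern. Members and lists were chosen with earlier results of these data known. Alternatives changed the filter, features per gene, scaling, variance model, arrays in the fit and replicate block, and left out each array; centring on the tested genes' median was added after seeing the data.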

Additional observations from a re-analysis of the deposited data

How the results depend on the processing

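Of the 459 differences of the 9 chemokines recomputed under an alternative, 420 kept their direction and side of the threshold, 24 no longer passed, 4 passed anew and 11 turned sign. None of those that turned was called. Ccl5 passed in both comparisons with WT under every alternative run. In Y3 against WT the count of 3 was 1 with Y3 arrays 1 and 3 averaged, and 1 to 3 with an array left out, being 1 (Ccl5) without Y3 array 1, 2 or 3. For Y3/CD103-/- against WT the count of 2 was 1 (Ccl5) without the filter on dim genes, with only the 2 groups compared, with the replicate block and with Y3 arrays 1 and 3 averaged, and 1 to 2 with an array left out. It was 1 without WT array 2 or 3, Y3 array 1 or 3, or any 1 Y3/CD103-/- array. The replicate block changed no other call of the 9, and left the count of 3 in Y3 at 3; same-numbered arrays did not deviate together (correlations of -0.04 to 0.11), so the numbers were not taken to pair arrays. Without the filter Ccl3 did not pass in Y3 (adjusted p = 0.0645 in limma), nor with only the 2 groups compared (0.0621). Ccl3 had 0.175 and Xcl1 0.0679 with Y3 arrays 1 and 3 averaged. With the filter at all 9 arrays Ccl20 passed in Y3 (0.0465) and Xcl1 in Y3/CD103-/- (0.031), where Xcl1 also passed with a trend and robust prior (0.0405). Between Y3/CD103-/- and Y3 the count was 0 under each.

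The differences that turned sign were those of Ccl4 in Y3/CD103-/- against WT (-0.01 without WT array 1 and -0.05 without WT array 3, range -0.05 to 0.56 with an array left out) and in Y3 against WT (0.01 without WT array 2, range -0.61 to 0.01). Cxcl10 in Y3 against WT was -0.08 after quantile normalization, -0.10 centred on the tested genes' median and -0.03 without WT array 2. For Y3/CD103-/- against WT, Cxcl2 was 0.22 without WT array 2 and 0.01 without Y3/CD103-/- array 2 (range -0.69 to 0.22), and Cxcl16 was 0.11 without WT array 2 (range -0.48 to 0.11). Ccl5 in Y3/CD103-/- against Y3 was 0.04 centred on the tested genes' median and 0.02 without Y3/CD103-/- array 1 (range -0.20 to 0.02). The causes were not tested.

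Counts over all genes moved more. Those in Y3/CD103-/- against WT, 107 in the fit reported, were 54 without the filter, 215 with it at all 9 arrays, 309 with a trend and robust prior, 17 with only the 2 groups compared, 55 with the replicate block, 62 with Y3 arrays 1 and 3 averaged, and 28 to 70 with an array left out. Those in Y3 against WT, 101 in the fit reported, were 52, 222, 346, 63, 54, 12 and 8 to 119 under the same alternatives. Between Y3/CD103-/- and Y3 the count was 1 in the fit reported, 3 with the mean of a gene's features, 10 with a trend and robust prior, and 1 to 2 with an array left out (2 without Y3 array 2 or Y3/CD103-/- array 2). The split in Y3 was 79 up and 22 down, and 46 up and 54 down centred on the tested genes' median or 46 and 32 after quantile normalization.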
